A study of Mus musculus with 2 samples.

Results

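The genes described here are the translation initiation factors (eIFs) of mouse embryonic stem cells, with the kinases and binding proteins that regulate them. They were taken by name, as every gene on the array whose symbol starts with Eif and a digit from 1 to 6, leaving out the Y-linked Eif2s3y. This gave 50 genes, measured by 106 probes, of 19087 genes with a symbol. Eif2s3x-ps1 among them is annotated as a pseudogene. Eif1, Eif2s1, Eif3g, Eif4g1 and Eif4e1b were not analysed here.

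RNA of Tcl1 stable transformants was compared with RNA of Tcl1 gene disruptants on 2 arrays with 2 dyes each, with different clones and the dyes exchanged between the arrays. Both kinds of cell lack an intact Tcl1 locus, because a puromycin cassette under the PGK promoter took the place of parts of the second and the third exon on both alleles, and the homozygous clones came from selection in high puromycin. The transformants additionally carried Tcl1 under the CAG promoter, followed by an internal ribosome entry site and a zeocin gene, a vector put into disruptant clone 4. All cells were grown without feeder cells, on gelatin and with LIF. Array 1 set transformant clone 1, in Cy5, against disruptant clone 4, in Cy3. Array 2 set transformant clone 4, in Cy3, against disruptant clone 6, in Cy5, and that disruptant had received an EGFP vector, whereas none is stated for the disruptant of array 1. Every cell kind is thus a single clone on each array, and p-values cover no more than the spread between the pairs. The 2 arrays are also unlike comparisons. The disruptant of array 1 is the clone that the Tcl1 vector was put into, and that of array 2 is another clone. On array 2 a difference from Tcl1 and a difference between these disruptant clones cannot be told apart.

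Each value below is a log2 ratio of transformant over disruptant, with array 1 named first and array 2 second, where 0 is no difference and −1 is a 2-fold lower signal. It is the mean of the probes of a gene, and a mean over arrays carries its SD with n = 2. The deposited numbers were taken to be log10 ratios of Cy5 over Cy3. That scale is inferred and that direction is likely, from the convention of the Agilent program, but neither is stated, so the opposite reading would turn every sign together. No level of any gene can be given, only ratios, and with 2 arrays the precision is low.

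Tcl1 itself had −0.37 and 0.17. Its probe's position relative to the deleted exons and the vector is unknown, so this checks nothing. Over all 30110 entries limma called 0 (0% at adjusted p under 0.05), with 3.15% at an unadjusted p under 0.05. Of 7 stem cell markers, 5 were below 0 on both arrays, where 19.4% of all genes with a symbol were, and 2 were above 0 on both, with medians of −0.58 and −0.51. The 2 above were Pou5f1 (0.10 and 0.50) and Utf1 (0.10 and 0.46). The 5 below were Zfp42 (−1.54 and −1.70), Nanog (−0.95 and −1.04), Tdgf1 (−0.67 and −0.93), Sox2 (−0.58 and −0.51) and Esrrb (−0.29 and −0.21). Zfp42 was at least 2-fold lower on both arrays, where 0.262% of all genes with a symbol were. Of 6 fibroblast, 6 trophoblast and 6 primitive endoderm markers, 2, 2 and 1 were below 0 on both, with medians of −0.07 and 0.03, −0.17 and −0.37, and −0.17 and 0.35. Since these are ratios, the presence of a cell type could not be checked, and the part of these differences in the results below was not tested. Fewer cells of a type and less RNA per cell cannot be told apart.

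As background, initiation starts when eIF2, bound to GTP and the initiator tRNA, joins the small ribosomal subunit together with eIF1, eIF1A, eIF3 and eIF5. The mRNA is brought in by eIF4F, made of the cap-binding protein eIF4E, the helicase eIF4A and the scaffold eIF4G, and eIF5B then joins the large subunit. Kinases that phosphorylate the alpha subunit of eIF2 lower initiation by blocking its exchange factor eIF2B, and the eIF4E-binding proteins (4E-BPs) hold eIF4E until the kinase complex mTORC1, which lies downstream of Akt, phosphorylates them. The Tcl1 protein binds Akt and raises its activity.

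More initiation factor genes lay below 0 than above it on each array, but no gene passed the test. On array 1, 31 of 50 were below 0, against 47.1% of all genes with a symbol, and on array 2 it was 37 of 50, against 47.9%. Both arrays were below 0 for 19 of 50 (38%), where 19.4% of all genes were. For many of these, 1 of the values was close to 0, as for Eif2b2 (−0.010 on array 1), Eif4h (−0.035 on array 1) and Eif2b5 (−0.014 on array 2). Such values are smaller than the median SD between probes of a member (0.26 on array 1 and 0.34 on array 2), so their sign is uncertain. Only Eif1b was above 0 on both (2%), where 22.1% of all genes were. The others ran in opposite directions. No member was called by limma over all entries (0 of 50, smallest adjusted p of 1), and 3 of 50 (6%, against 3.15% of all entries) had an unadjusted limma p under 0.05. These were Eif4b (0.014), Eif3l (0.020) and Eif4a1 (0.049), each lower on 2 of 2 arrays.

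**Figure D1:**
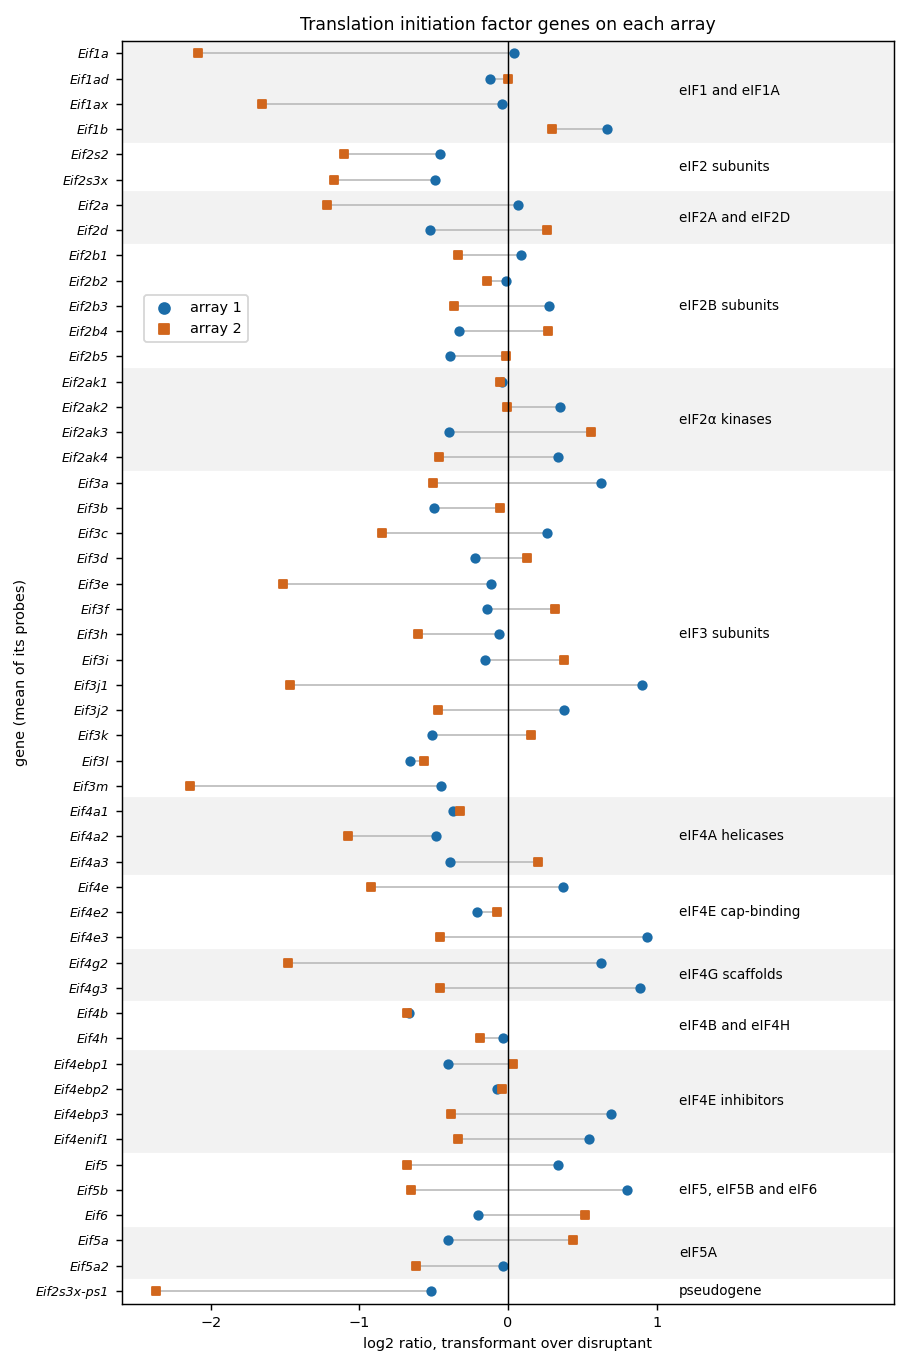
Log2 ratio of transformant over disruptant (x axis) of each initiation factor gene (y axis, grouped by factor), as the mean of its probes, with array 1 as circles and array 2 as squares joined by a line. Eif4b, Eif3l and Eif4a1 have both points below 0 and close together, while Eif1a, Eif3m and Eif2s3x-ps1 reach below −2 on array 2 alone.

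The sizes differed between the arrays. On array 2, 11 of 50 members were at least 2-fold lower (22%, against 5.45% of all genes with a symbol) and 0 at least 2-fold higher (0.566% of all genes). On array 1, 0 of 50 were at least 2-fold lower and 0 at least 2-fold higher, where 2.09% and 1.38% of all genes were. So no member was 2-fold lower on both arrays (0.262% of all genes), and Eif4b alone was at least 1.5-fold lower on both (1.22% of all genes). The SD over the 50 members was 0.45 on array 1 and 0.71 on array 2, against 0.43 and 0.50 over all genes with a symbol. The median of the members was −0.07 on array 1 and −0.37 on array 2, against 0.0053 and 0 for all genes.

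Promoter sequence was examined for features shared by members that lay below 0 together. RefSeq windows (GRCm38.p6) of 300 bases, 250 before and 50 after an annotated start, were at hand for 38 of the 50 genes. The motifs searched, on both strands, were CCGGAAG, the core of sites of ETS factors, and CACGTG, the E-box that Myc binds. A start was called pyrimidine-led where its first base is C and the next 4 are C or T, the form of the oligopyrimidine (TOP) tract by which mTORC1 controls many translation mRNAs. The ETS core was in 15 of 38 members (39.5%), against 9.93% of 27025 genes, and the E-box in 9 (23.7%), against 8.09%. A gene was counted if the window of any of its annotated starts matched. The 27025 are all genes with a window, on the array or not, and were not chosen to be like the members. A pyrimidine-led start was found for Eif2s3x and Eif3f (5.26%, against 3.01%). Matches to these 2 motifs cannot overlap each other. Also searched were CCAAT, in 36.8% of members and 41.1% of genes, TATAAA, in 5.26% and 15.7%, and TGACGTCA, in 0% and 2.03%.

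A few stretches, chosen because they hold a match, are shown to let the matches be seen beside the values. Of these, 4 are from genes below 0 on both arrays and 1 is from Eif1b, which was above 0 on both. Eif4b, Eif2s2 and Eif4a2, also below 0 on both arrays, had windows with no match to any form searched. Capitals mark the match. In Eif2s3x (chrX:94212632-94212696, minus strand) it is the pyrimidine run at the start. In Eif3l (chr15:79075143-79075239, plus strand), Eif3m (chr2:105017031-105017127, minus strand) and Eif1b (chr9:120492411-120492507, plus strand) it is the ETS core on either strand, and in Eif4a1 (chr11:69672562-69672657, minus strand) the E-box.
Eif2s3x: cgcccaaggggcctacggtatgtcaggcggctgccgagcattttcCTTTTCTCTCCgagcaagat
Eif3l: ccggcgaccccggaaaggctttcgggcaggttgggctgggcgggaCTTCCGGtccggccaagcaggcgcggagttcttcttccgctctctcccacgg
Eif3m: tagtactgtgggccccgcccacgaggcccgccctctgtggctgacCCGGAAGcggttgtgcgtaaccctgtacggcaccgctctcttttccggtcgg
Eif4a1: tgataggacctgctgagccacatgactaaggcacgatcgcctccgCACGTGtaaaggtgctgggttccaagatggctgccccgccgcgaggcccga
Eif1b: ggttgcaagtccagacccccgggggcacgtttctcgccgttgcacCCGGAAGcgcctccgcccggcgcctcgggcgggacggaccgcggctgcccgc

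Among the members with a window, the ETS core was in 8 of 16 that were below 0 on both arrays and in 7 of 22 others, Eif1b included. The E-box was in 3 of 16 and 6 of 22. A match is a description of the letters and not of a bound site, and these counts were not tested.

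The 2 measured subunits of eIF2, which carries the initiator tRNA, were below 0 on both arrays. The third, the alpha subunit gene Eif2s1, was not analysed, so all values of the eIF2 subunits rest on 2 genes. Eif2s2, the beta subunit gene, had −0.46 and −1.10 (−0.78 ± 0.45, or 1.72-fold lower). Eif2s3x, the X-linked gene of the gamma subunit, had −0.49 and −1.17 (−0.83 ± 0.48, or 1.78-fold lower). Both genes were lower on array 2 than on array 1. The 4 probes of Eif2s3x had −0.74, −0.72, −0.44 and −0.06 on array 1 and −1.63, −1.46, 0.18 and −1.76 on array 2, in the same order. The probe at 0.18 was the 1 with no RefSeq mRNA accession. The 3 probes of Eif2s2 ranged from −0.52 to −0.38 on array 1 and from −2.07 to −0.11 on array 2, where the highest again was the probe with no RefSeq mRNA accession. All probes of both genes were below 0 on array 1, with a wide spread on array 2.

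Eif2s3x-ps1, the pseudogene of Eif2s3x, had −0.52 and −2.37 with 1 probe. The Y-linked Eif2s3y, not counted here, had −4.19 and −1.90. These copies are close in sequence, the probe sequences were not examined, and the share of the signal that each gives is uncertain.

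The genes of eIF2B, the exchange factor that reloads eIF2 with GTP, lay on both sides of 0. All 5 subunits were measured, with medians of −0.01 and −0.14, 2 of 5 below 0 on both arrays (19.4% of all genes with a symbol) and a range from −0.39 to 0.27 on array 1 and from −0.36 to 0.27 on array 2. Eif2b5, the catalytic epsilon subunit gene, had −0.39 and −0.014. Eif2b1, the alpha subunit gene, had 0.09 and −0.34, and Eif2b2, the beta subunit gene, −0.01 and −0.14. Eif2b3 had 0.27 and −0.36, and Eif2b4 −0.33 and 0.27, so these genes for the gamma and the delta subunit mirrored each other. The median of the eIF2 subunits was lower than that of eIF2B by −0.46 on array 1 and −0.99 on array 2 (−0.73 ± 0.37, n = 2).

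The eIF2α kinases, which sense different stresses, showed no shared direction. Eif2ak1, the heme-regulated kinase, was close to 0 with −0.04 and −0.05, but as the average of probes that disagreed. Its 4 probes ran from −0.37 to 0.22 on array 1 and from −0.54 to 0.25 on array 2. Eif2ak2, the double-stranded RNA kinase PKR, had 0.35 and −0.0058. Eif2ak3, the kinase PERK of the endoplasmic reticulum, had −0.40 and 0.56, as the average of probes that disagreed, with 0.61 and −0.46 for the RefSeq probe and −1.42 and 1.57 for the other. Eif2ak4, the amino acid sensor GCN2, had 0.34 and −0.46. The medians of the 4 kinases were 0.15 and −0.03, and the median of the eIF2 subunits was below theirs by −0.62 and −1.10.

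Of the factors that can place initiator tRNA without eIF2, Eif2a (eIF2A, not the alpha subunit of eIF2) had 0.07 and −1.22 with 1 probe, and Eif2d had −0.53 and 0.26. The 3 RefSeq probes of Eif2d were all below 0 on array 1, from −1.19 to −0.52, and all above 0 on array 2, from 0.35 to 0.48. The fourth probe, with another accession, had 0.26 and −0.18. Both genes therefore lay on opposite sides of 0 on the 2 arrays.

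The eIF1A genes, whose product helps scanning and start codon choice, had large negative values on array 2 and values near 0 on array 1. Eif1a had 0.04 and −2.09, and its probes both lay low on array 2, at −2.16 and −2.01. Eif1ax, its X-linked relative, had −0.04 and −1.65, with probes at −2.22 and −1.09 on array 2. On array 1 all 4 probes lay between −0.08 and 0.15. The 2 genes are closely similar in sequence and their separate values are uncertain. Eif1ad, an eIF1A domain gene, had −0.12 and 0.0028, and Eif1b, a relative of eIF1, had 0.67 and 0.29 (0.48 ± 0.26, or 1.40-fold higher). Eif1b was measured by 1 probe.

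The subunits of eIF3, the largest initiation factor, divided. Of 13 measured, 5 had both values below 0 and 0 had both above, 4 were above on array 1 and below on array 2, and 4 the other way, with medians of −0.14 and −0.50. The shares of all genes with a symbol were 19.4%, 22.1%, 28.2% and 27.2%, in the same order. Eif3l, with 1 probe, had −0.66 and −0.57 (−0.61 ± 0.07, or 1.53-fold lower), a small spread between arrays. Eif3m, also with 1 probe, had −0.45 and −2.14 (−1.30 ± 1.196), with most of the difference on array 2. Eif3e had −0.11 and −1.51, and its probes differed on array 2, at −2.70 and −0.33. Eif3h had −0.06 and −0.61. Eif3b, a scaffold subunit gene, had −0.50 and −0.06, and its probes on array 2 lay on opposite sides of 0, at −0.34 and 0.23. The means of these 5 genes were below 0 on both arrays, though only that of Eif3l by over 0.5 on both.

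The remaining eIF3 genes ran against themselves on the 2 arrays. Eif3j1, for a loosely bound subunit, was the most divided, with 0.90 and −1.46 and probes of 0.79 and 1.01 on array 1 and −1.31 and −1.62 on array 2. Its close copy Eif3j2 had 0.38 and −0.47, and the 2 cannot be separated with certainty. Eif3a, the largest subunit gene, had 0.62 and −0.50, with probes from −0.11 to 1.33 on array 1 and from −1.07 to 0.11 on array 2. Eif3c had 0.26 and −0.85, with its 4 probes from 0.07 to 0.38 on array 1 and from −1.13 to −0.59 on array 2. Lower on array 1 and higher on array 2 were Eif3d (−0.22 and 0.12), Eif3f (−0.14 and 0.31), Eif3i (−0.15 and 0.38) and Eif3k (−0.51 and 0.15). For Eif3d the RefSeq probe was below 0 on both arrays (−0.44 and −0.06), and the other probe had −0.01 and 0.31. Of the 8 subunits that form the structural core of eIF3 through PCI or MPN domains, a grouping made with these values known, 4 were below 0 on both arrays, with medians of −0.13 and −0.59. Of the 5 measured outside it, 1 was, with medians of −0.15 and −0.06. Of all genes with a symbol 19.4% were below 0 on both.

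Eif4b and the helicase genes Eif4a1 and Eif4a2 lay below 0 on both arrays. Eif4b, which stimulates the helicase, had −0.66 and −0.68 (−0.67 ± 0.0086, or 1.59-fold lower). Its 3 probes were below 0 in all 6 readings, from −0.95 to −0.42 on array 1 and from −0.98 to −0.35 on array 2. The close agreement of the 2 means was thus an average over probes that spread more than the arrays did. Eif4a1 had −0.37 and −0.32 (−0.35 ± 0.04, or 1.27-fold lower), but its probes were −0.96, −0.08 and −0.07 on array 1 and 0.32, −0.63 and −0.65 on array 2. No single probe of Eif4a1 showed the average on both arrays. Eif4a2 had −0.49 and −1.08 (−0.78 ± 0.42, or 1.72-fold lower), with both probes below 0 on both arrays. Eif4a3, the paralog that sits in the exon junction complex, had −0.39 and 0.20, and Eif4h, a relative of eIF4B, −0.04 and −0.19.

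The scaffold genes measured, Eif4g2 and Eif4g3, and the cap-binding gene Eif4e ran in opposite directions on the 2 arrays. Eif4g2 (DAP5), a scaffold that lacks the eIF4E-binding part, had 0.63 and −1.48, with all 4 probes above 0 on array 1 (from 0.24 to 0.91) and below 0 on array 2 (from −2.43 to −0.81). Eif4g3 had 0.89 and −0.46. Eif4e, the cap-binding protein gene, had 0.37 and −0.92, with probes of 0.43 and 0.31 on array 1 and −0.79 and −1.05 on array 2. Eif4e3, a divergent relative, had 0.93 and −0.46, and Eif4e2, a relative that can repress initiation, had −0.21 and −0.07. The 5 probes of Eif4e2 ran from −0.59 to 0.21 on array 1 and from −0.45 to 0.23 on array 2. The median of the eIF4A genes was below that of the eIF4G genes by −1.15 on array 1 and above it by 0.65 on array 2, so this gap had no shared direction. The gap between eIF4B with eIF4H and the eIF4G genes, −1.11 and 0.54, had none either.

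The genes of proteins that bind eIF4E had no shared direction. Eif4ebp1 had −0.41 and 0.03, Eif4ebp2 −0.07 and −0.04, and Eif4ebp3 0.69 and −0.38. Eif4enif1 (4E-T), which shuttles eIF4E into the nucleus and P-bodies, had 0.55 and −0.34, with all 3 probes above 0 on array 1 and below 0 on array 2. The medians of the 4 were 0.24 and −0.19. The median of the eIF4E genes exceeded theirs by 0.13 on array 1 and was below it on array 2 (−0.27).

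The genes of late factors differed between the arrays. Eif5, the GTPase-activating protein gene of eIF2, had 0.34 and −0.68. Eif5b, the subunit-joining GTPase gene, had 0.80 and −0.65, and its 5 probes were all above 0 on array 1 (from 0.32 to 1.27) and all below 0 on array 2 (from −1.11 to −0.16). Eif6, which keeps the large subunit from joining too early, had the opposite pattern with −0.20 and 0.52. Its probes ran from −0.67 to 0.14 on array 1 and from 0.35 to 0.76 on array 2. Eif5a, now known mainly as an elongation factor, had −0.41 and 0.44, and Eif5a2 had −0.03 and −0.62.

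**Figure D2:**
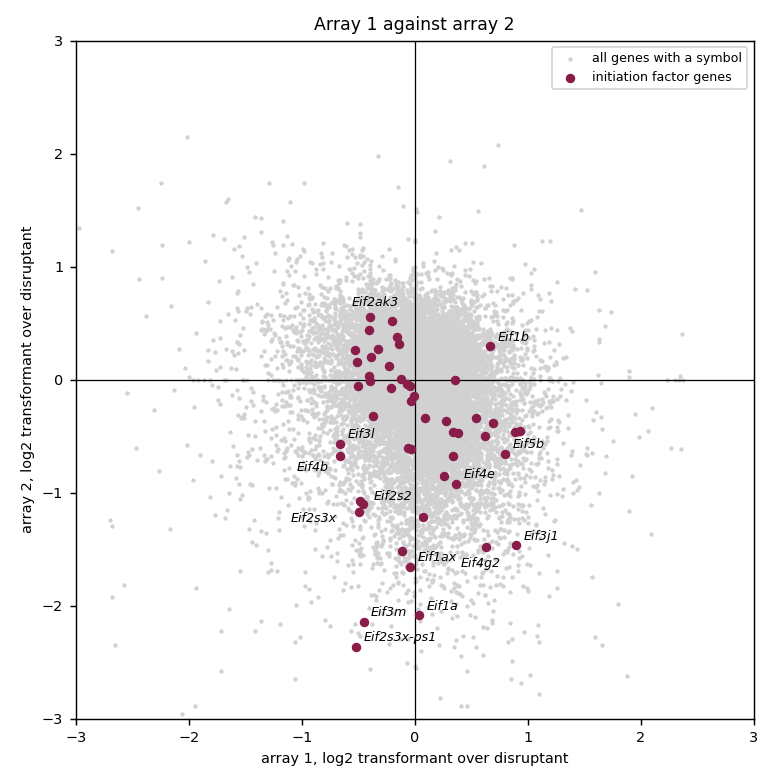
Log2 ratio of transformant over disruptant on array 1 (x axis) against array 2 (y axis), for the 50 initiation factor genes (dark points) and all genes with a symbol (grey); 19 genes beyond 3 on either axis are not drawn. The lower left holds 19 members and the upper right only Eif1b, while Eif4g2, Eif3j1 and Eif5b lie at the lower right.

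An opposite sign on the 2 arrays means that 1 dye gave more signal each time. Cy5 gave more on both for 18 members (36%, against 28.2% of all genes with a symbol), among them Eif4g2, Eif3j1, Eif5b, Eif4e and Eif4g3. Cy3 gave more on both for 12 members (24%, against 27.2%), among them Eif5a, Eif6, Eif2d and Eif2ak3. This holds for the means, and single probes differed. The RefSeq probe of Eif2ak3 went the other way (0.61 and −0.46), as did 1 probe of Eif2d (0.26 and −0.18). The probes of Eif6 lay on both sides of 0 on array 1, from −0.67 to 0.14. For all these genes a difference of the dyes and a difference between the pairs of clones cannot be told apart. Across the 50 genes the Pearson correlation of the arrays was −0.10 and the Spearman correlation −0.19, and across all genes with a symbol they were −0.14 and −0.18. These are descriptions across genes that share the same 2 hybridisations, and genes are not independent replicates.

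Of the 6 gaps between factor groups that were compared, 3 had the same sign on both arrays. All 3 had the eIF2 subunits, of which 2 were measured, on the lower side. They were set against eIF2B, the eIF2α kinases (−0.86 ± 0.34) and eIF3 (−0.33 and −0.63, or −0.48 ± 0.21). An exact two-sided sign-flip test over 2 arrays cannot give a p below 0.5, which was the value of these 3, and adjusted over the 6 gaps every p was 1. None of these gaps is therefore shown to exceed the spread between the pairs of clones.

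Probes of 1 gene gave a measure of spread within an array, which holds lasting differences between the probes as well as error. Of 32 members with several probes, all probes had the same sign for 22 on array 1 (68.8%) and for 20 on array 2 (62.5%), and on both arrays for 16 (50%). Over all 8266 genes with several probes the shares were 44.9%, 48.6% and 28.1%. The median SD between probes of a member was 0.26 on array 1 and 0.34 on array 2, against 0.25 and 0.28 for all such genes. The other 18 members had 1 probe and no such measure.

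**Figure D3:**
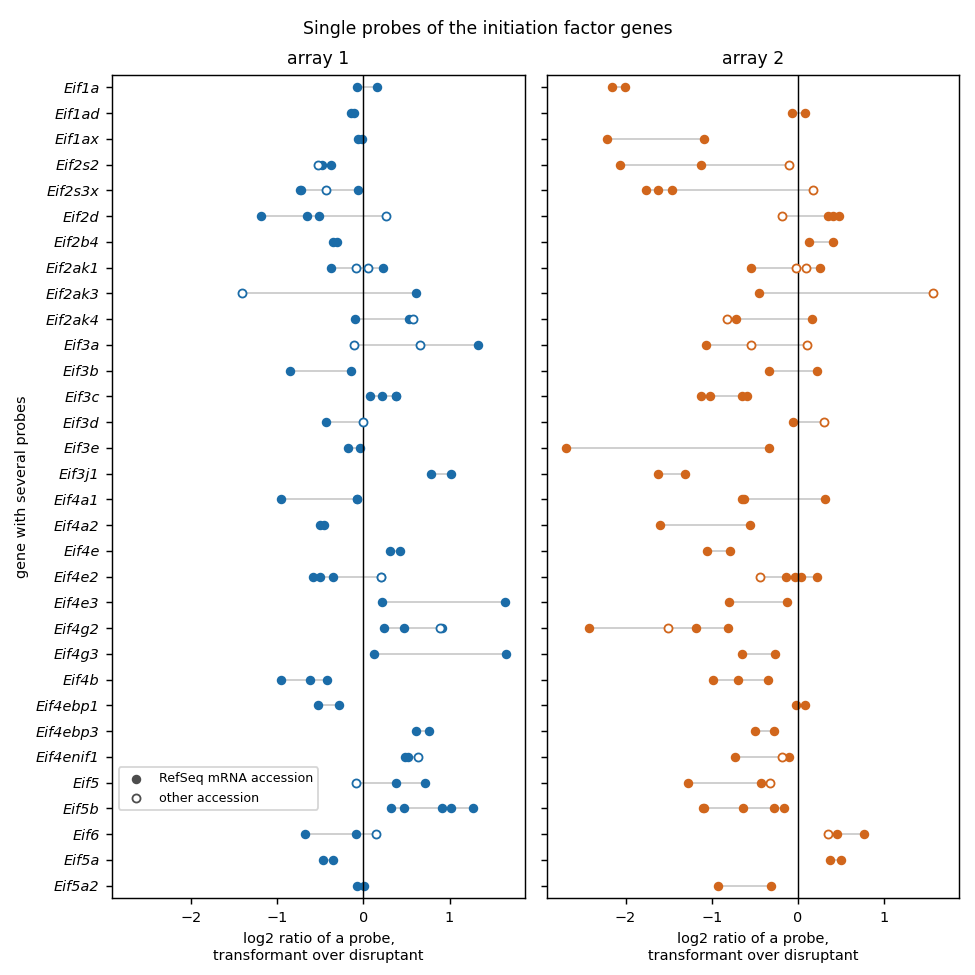
Log2 ratio of transformant over disruptant of every probe (x axis) of the 32 initiation factor genes with several probes (y axis), on array 1 (left) and array 2 (right), with filled points for RefSeq mRNA accessions and open points for others. Eif4b, Eif5b, Eif4g2 and Eif3c have all probes on 1 side of 0 on each array, and the 2 probes of Eif2ak3 lie on opposite sides.

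The members lie on 18 chromosomes, with 6 on chromosome 15, 5 on chromosome 2 and 5 on chromosome 5. The medians of all genes on the chromosomes that hold members ran from −0.0077 to 0.032 on array 1 and from −0.11 to 0.070 on array 2. On the X chromosome, which carries Eif2s3x and Eif1ax, they were 0.013 and −0.073.

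Other genes of translation give a setting for the initiation factors. Limma called 0 of each list, as of all entries. Of 14 genes of the mTORC1 pathway to eIF4E, 2 had both values below 0 (19.4% of all genes with a symbol) and 3 had both above (22.1%), with medians of 0.01 and 0.04. Rheb, the GTPase that activates mTORC1, had 0.05 and −0.67, and Mlst8, an mTORC1 subunit gene, 0.65 and 0.38. These medians were close to those of all genes with a symbol.

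The genes of the eIF2 phosphatase and of the stress response downstream of eIF2α phosphorylation, listed together, divided by array. All 9 were below 0 on array 1 (47.1% of all genes with a symbol) and 3 on array 2 (47.9%), with medians of −0.40 and 0.08. Asns, asparagine synthetase, was the only 1 at least 2-fold lower on both arrays, with −1.68 and −1.23. Atf4, the factor that drives this response, had −0.22 and 0.84. The kinases that start the response had their medians at 0.15 and −0.03.

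Poly(A) binding, termination and accessory genes had lower medians on array 2 than on array 1. Of all genes with a symbol 47.1% were below 0 on array 1 and 47.9% on array 2. The 6 poly(A) binding and interacting genes were all below 0 on array 2, and 3 on array 1, with medians of 0.06 and −0.69. Pabpc1, the main cytoplasmic poly(A) binding protein gene, had −0.17 and −1.45, and Pabpn1, its nuclear counterpart, 0.38 and −0.25. The 6 termination and recycling genes were also all below 0 on array 2, and 2 on array 1, with medians of 0.25 and −0.62. Etf1, the release factor eRF1, had −0.14 and −1.54, and Gspt2, an eRF3 gene, 0.38 and −0.32.

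Of 9 other initiation proteins 6 were below 0 on array 2 (47.9% of all genes with a symbol) and 2 on array 1 (47.1%), with medians of 0.03 and −0.58. Dhx29, a helicase that aids scanning, had 0.07 and −1.29, and Dhps, which makes the hypusine of eIF5A, 0.03 and 0.40. Elongation factor genes differed, with 7 of 8 below 0 on array 1 and 5 on array 2, and medians of −0.33 and −0.02. Eef1a1, the main aminoacyl-tRNA carrier gene, had −0.34 and −0.84, and Eef1a2, its tissue-restricted relative, −0.44 and 0.67. The lists were of 6 to 14 genes and their differences from the initiation factors were not tested.

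**Figure D4:**
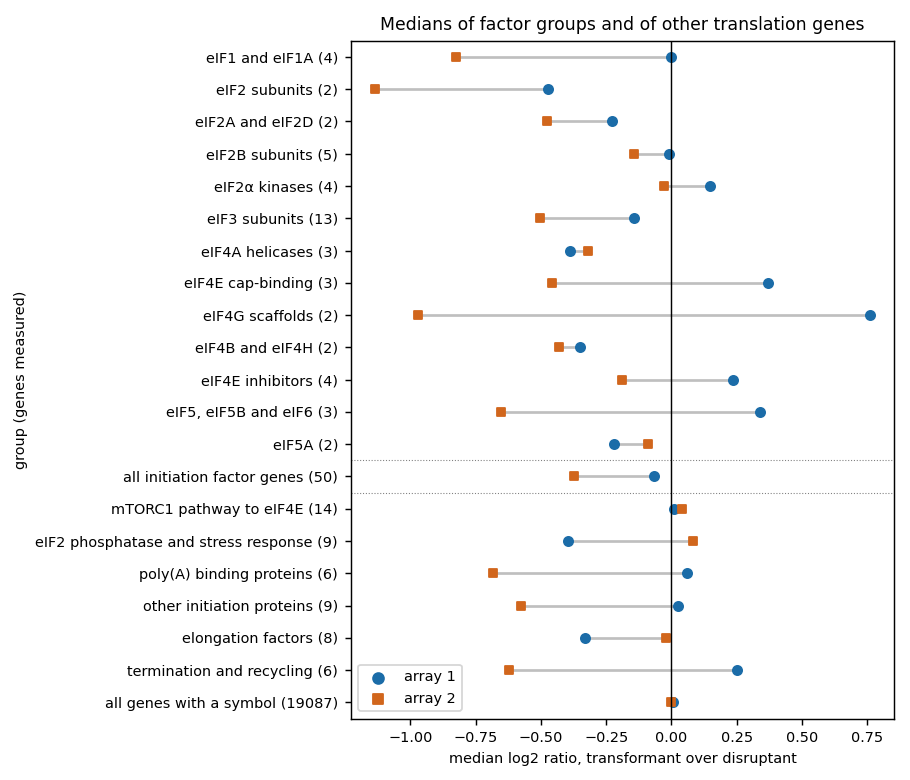
Median log2 ratio of transformant over disruptant (x axis) of the genes of each factor group and of other translation gene lists (y axis, number of genes measured in brackets), with array 1 as circles and array 2 as squares. The 2 measured eIF2 subunits are the lowest group on both arrays (−0.47 and −1.13). The eIF4G genes lie at 0.76 on array 1 and −0.97 on array 2.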

How the data were processed

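Each of 2 Agilent arrays compared RNA of a transformant clone with RNA of a disruptant clone. The authors deposited 1 value per spot, without a stated scale or direction, read here as a log10 ratio of Cy5 over Cy3. Per the submitters' processing notes, Agilent Feature Extraction made these values, with no version, background correction or dye normalization stated. Deposited medians were 0 on both arrays, and how the centring was reached is unknown.

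From these values log2 ratios were computed by multiplying by 3.32, and array 2 was turned to transformant over disruptant. Of 43790 spots, 725 unlisted ones were taken for control spots and dropped. Their deposited log10 values, before array 2 was turned, were below −1 on both arrays. GEO's platform annotation gave 1 symbol for 32042 spots and several for 47, and 11701 were unlisted. Probes were averaged per symbol, and all 50 members matched RefSeq by gene number. Array means were tested against 0 across 30110 entries with limma 3.58.1 (lmFit and eBayes, R 4.3.3, Benjamini-Hochberg, threshold 0.05), with 1 residual degree of freedom. The procedure was tested on simulated data. Success was required there only with more arrays than here and a difference larger than any member's mean, so it is no check of the present design. Group gaps had an exact sign-flip test.

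All members and all measured stem cell markers were named, and of the other translation lists the genes with the lowest and the highest mean. Members and lists were chosen with earlier results of these data known. Alternatives changed the sign of array 2, the scale, the treatment of probes, zeros and unlisted spots, the centring, the variance model, the fold limit and the arrays used. A setting with RefSeq mRNA probes only was chosen after seeing the data.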

Additional observations from a re-analysis of the deposited data

How the results depend on the processing

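Values are means of the 2 arrays in log2 unless given as percent. With array 2 not turned, 24% of members were below 0 on both arrays and 36% above. The group medians then became 0.41 for eIF1 and eIF1A, 0.33 for eIF2, 0.13 for eIF2A and eIF2D, 0.067 for eIF2B, 0.18 for eIF3, −0.034 for eIF4A, 0.041 for eIF4B and eIF4H, and 0.15 for all members. Groups with a wide spread between arrays shifted as well, though by less than that spread. The eIF4G median went from −0.11 to 0.87, that of eIF5, eIF5B and eIF6 from −0.16 to 0.50, and that of eIF4E from −0.045 to 0.41. The gap of eIF4A to eIF4G went from −0.25 to −0.90. The gaps of eIF2 to eIF2B, the kinases and eIF3 became 0.26, 0.24 and 0.15. With the values read as log2, the medians shrank to −0.24 for eIF2, −0.11 for eIF2A and eIF2D, −0.11 for eIF4A, −0.12 for eIF4B and eIF4H and −0.047 for eIF5A, and the same gaps to −0.22, −0.26 and −0.14, by construction. With each probe by itself they were −0.083 for eIF2A and eIF2D, −0.51 for eIF4A and −0.52 for eIF4B and eIF4H, and with the median of probes −0.51 for eIF4A. The cause of these last shifts was not tested. At 1.5-fold, 2% of members were lower on both arrays, in place of 0% at 2-fold. On single arrays, 62% to 74% of members were below 0, 26% to 38% above 0 and 0% to 22% at least 2-fold lower. Beside the single arrays, the remaining 229 values of groups, shares, gaps and counts moved by less than the spread between arrays or stayed within the limits set for a count, as did 460 values of single genes. Of single genes, 24 moved by more with array 2 not turned, 10 with values read as log2, 2 with the median of probes and 1 with RefSeq mRNA probes only. Many of the values that stayed could not have moved. No member probe was exactly 0 and all were listed, so the settings for zeros, unlisted spots and control spots left member values unchanged. For single genes, taking each probe by itself gives the same mean. These counts are therefore no measure of stability. Robust eBayes and a test against a 1.2-fold change also called 0 entries. The main test is itself paired, since each value is a ratio of a transformant over a disruptant on 1 array. No paired analysis was possible beyond it, because no replicate block is left to add. Signal over background is unknown, which limits what can be said of any single probe.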
